A study of Mus musculus with 48 samples.

Results

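Motile cilia genes are described here as the 65 of 21558 rows in a mouse hypothalamus RNA-seq table whose symbols belong to the axonemal dynein heavy chains (Dnah), the cilia and flagella associated proteins (Cfap), the radial spoke heads and stalks (Rsph), the tektins (Tekt) or the central apparatus genes Spag6, Spag6l, Spag16 and Spag17. The rule used symbols alone and no measured value. It took in 33 Cfap, 15 Dnah, 8 Rsph, 5 Tekt and 4 Spag genes. No row carried a Dnai symbol, because the table lists the axonemal dynein intermediate chains as Dnaic1 and Dnaic2, which the rule did not take. The table held 48 libraries, each made from the pooled hypothalami of 3 male C57BL/6 mice. They formed 8 series of 6 libraries, and within each series the titles carried the numbers 1, 5, 9, 13, 17 and 21, whose unit the labels leave unstated and which are taken here as hours.

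In the 4 early series the mice were 2 months old and kept at 10 dBA and normal pressure. A pair of these series, called a and b, came from free-moving mice and another pair, also called a and b, from mice under hind limb unloading, a tail suspension model that takes the load off the hind legs. The labels of a and b are alike. In the 4 late series the labels give an age of 3 months, while the design text of the study names an age of 2 months for all mice. Late quiet series were kept at 10 dBA and normal pressure, and late noise series at 85 dBA and 0.9 atm, each with 1 series of free-moving and 1 of unloaded mice. Noise and reduced pressure were applied together and cannot be told apart, and a late condition cannot be told apart from its single series.

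A motile cilium is built on a ring of microtubule doublets around a central apparatus. Outer and inner dynein arms, whose motor subunits are the very long heavy chains, slide neighbouring doublets, and radial spokes carry signals from the central apparatus to the arms. In the brain, motile cilia stand in tufts on the ependymal cells that line the ventricles and move cerebrospinal fluid, and the hypothalamus borders the third ventricle. Transcription factors of the RFX family, which bind the X-box motif, and Foxj1 switch on much of this gene programme.

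Promoter windows were available from RefSeq (build GRCm38.p6, 250 bases before to 50 bases after a start) for 54 of the 65 genes. The X-box was searched as the letters GTNNCC, then 1 to 3 bases, then GGNNAC, a pattern that reads the same on both strands. It was present in 9 of the 54 genes (16.7%), against 1082 of 27025 genes in all RefSeq windows (4.0%). None of the 14 heavy chain genes with a window held it, while 5 of 15 genes with a coding transcript of at most 2 kb did (33.3%). The forkhead letters GTAAACA, searched on both strands, were in 4 of the 54 genes (7.41%), against 4.05% of all genes. A match is a run of letters and not a shown binding site. The 3 stretches below belong to genes whose levels moved between series and are shown for the place of the box, which is in capitals. Each gives the 250 bases before the RefSeq start, 5′ to 3′ on the strand of the gene.
Cfap126, chr1:171122795-171123044, plus strand: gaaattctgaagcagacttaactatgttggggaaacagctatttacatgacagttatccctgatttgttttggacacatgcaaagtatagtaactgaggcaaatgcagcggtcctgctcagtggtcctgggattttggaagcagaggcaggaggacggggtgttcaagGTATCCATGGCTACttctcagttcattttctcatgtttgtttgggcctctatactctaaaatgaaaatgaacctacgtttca
Tekt4, chr17:25471340-25471589, plus strand: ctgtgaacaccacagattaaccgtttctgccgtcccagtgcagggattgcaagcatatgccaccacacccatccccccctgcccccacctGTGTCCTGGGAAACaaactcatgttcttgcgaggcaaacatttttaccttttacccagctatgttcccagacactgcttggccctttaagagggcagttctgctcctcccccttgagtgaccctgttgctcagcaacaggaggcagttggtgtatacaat
Cfap43, chr19:47837362-47837611, minus strand: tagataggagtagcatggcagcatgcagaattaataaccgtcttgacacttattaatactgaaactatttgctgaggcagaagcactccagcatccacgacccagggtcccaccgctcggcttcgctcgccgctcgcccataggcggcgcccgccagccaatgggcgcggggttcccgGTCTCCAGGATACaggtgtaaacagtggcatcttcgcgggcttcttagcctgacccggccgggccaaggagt
The box began 82 bases before the RefSeq start in Cfap126, 160 in Tekt4 and 72 in Cfap43. In each of these genes the GENCODE M21 models place it in an intron of a longer transcript. The most abundant member, Rsph9, held GTCTCCATGGAGAC from 6 bases before its RefSeq start, within a GENCODE exon. Cfap298 held a pair of boxes, GTTGCCCGGGCAAC and GTTGCCCCTGGCAAC, beginning 188 and 69 bases before its start.

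The deposited values are RPKM, which scale reads by transcript length and library total, so levels can be compared between genes. The spacing of the low values gave an estimated depth per library of 28280000 to 55190000 reads, with a median of 38070000. Differences are given as log2(RPKM + 0.1) ± SE from limma over 15448 genes with a mean RPKM of at least 0.1, with the title number as a block, and a gene is called at a Benjamini-Hochberg adjusted p below 0.05. Of the 65 members 62 passed that filter. Dnah8 (mean 0.0574 RPKM), Spag6 (0.07) and Cfap97d1 (0.00124, at 0 in 47 libraries) did not, while Rsph6a (0.102) and Dnah14 (0.11) lay just inside it. The labels do not say whether pools came from separate cages or days, so a p-value rests on the spread among pools. Each series held a single pool per title number. That spread therefore also holds any change of a series difference with the title number. Markers of the labelled tissue were present in every library, with means of 293 RPKM for the hypothalamic neuropeptide gene Hcrt and 15.6 for the transcription factor gene Otp. Their levels were not even across series. The 7 hypothalamic markers summed to a mean of 1954 RPKM in late quiet free-moving mice. Late quiet unloaded mice had 2873, and the other series 5321 to 7042. Avp alone averaged 3230 RPKM over all libraries. Of the 7, limma called 3 higher and 2 lower in late quiet against early free-moving mice. Summed tanycyte markers averaged 68.8 (free-moving) and 85.1 RPKM (unloaded) in late quiet mice, against 105.2 to 121.3 elsewhere. Library 9 of early unloaded series a held summed anterior pituitary marker levels of 12130 RPKM, against at most 66.1 in the others. Library 17 of the late quiet free-moving series (395.9 RPKM) and libraries 17 (284.4) and 13 (100.5) of the late quiet unloaded series stood apart in choroid plexus markers, against at most 41.7 in the rest.

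The members spanned a wide range of levels. Rsph9, a radial spoke head protein (ENSMUSG00000023966.8, chr17:46122035-46144216, minus strand in GENCODE M21), averaged 32.8 ± 9.53 RPKM (SD, n = 48) and ran from 14.9 to 56.3. Cfap36, which is also transcribed in cells without motile cilia, averaged 31.4 ± 6.14 RPKM and ran from 15.6 to 45.9. These were the highest of the set, followed by Cfap410 (19.8 RPKM), Cfap20 (15.8), a protein inside the doublet microtubules, and the spoke head gene Rsph1 (12.1 ± 3.28). By family, the median of the mean levels was 6.14 RPKM for the 8 spoke genes, 2.99 for the 5 tektins, 1.79 for the 32 tested Cfap genes, 0.431 for the 14 tested heavy chains and 0.379 for the 3 tested Spag genes. Of the 62 tested genes 28 were under 1 RPKM, among them 11 of the 14 heavy chains.

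The heavy chains were low per length but not in reads. Their longest coding transcripts measured 12 to 15.6 kb and gathered a median of 226 estimated reads per library, from 57 to 2004 by gene. The 19 tested members of at most 2 kb had a median level of 2.75 RPKM and a median of 218 estimated reads. Dnah1, an inner arm chain (ENSMUSG00000019027.8, chr14:31260375-31323896, minus strand), was the highest of its family at 4.01 ± 0.793 RPKM. It was followed by Dnah7b (1.78), Dnah10 (1.01), Dnah2 (0.762) and Dnah9 (0.734). The outer arm chains Dnah5 (0.361 RPKM) and Dnah11 (0.305) lay lower, and so did Dnah17 (0.134), best known from sperm. Several of these genes are known from sperm, and the spermatid markers Prm1, Prm2, Tnp1 and Odf1 summed to 0 to 0.687 RPKM per library. Of the central apparatus genes Spag6l was the highest, at 1.93 RPKM. Among the Cfap genes of the doublet interior Cfap126 averaged 5.31 RPKM, Cfap45 2.63, Cfap52 1.86 and Cfap53 0.422, and among those of the central apparatus Cfap69 averaged 4.47 and Cfap46 2.67. The inner arm tether genes Cfap44 (1.72 RPKM) and Cfap43 (1.7) were at about the same level.

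**Figure D1:**
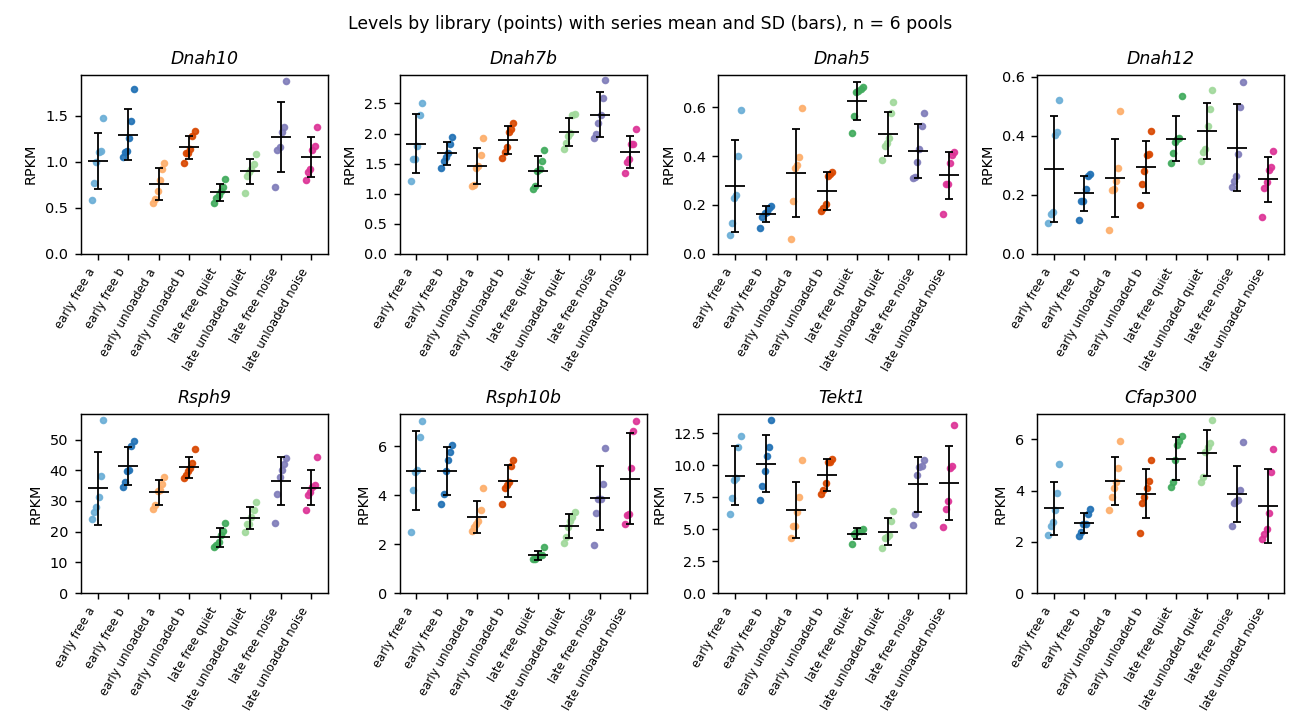
RPKM of 8 members in the 8 series, with 1 point per library and bars for the series mean and SD (n = 6). Rsph9, Rsph10b and Tekt1 are lowest in the late quiet series, while Dnah5 is highest in the late quiet free-moving series.

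By mean level, the late quiet free-moving series was the lowest of the 8 series in 25 of the 62 tested members and the highest in 11, beside 23.2% and 42.0% of all tested genes. Early free-moving series b was the lowest in 17 members and the highest in 16, beside 51.5% and 7.31% of all tested genes. The late quiet unloaded series was the lowest in 0 and the highest in 11, beside 1.4% and 18.7%. Summed over all members, the level ran from 194.9 to 219 RPKM (mean 207.8) in the late quiet free-moving series. The means of the other series lay between 230 and 253.5 RPKM. The 11 ependymal markers summed to a mean of 110.9 RPKM in that series and to between 115.1 and 136.5 in the others. No ependymal marker was at 0 in any library. These sums overlapped, at 99 to 121.4 RPKM there and 106.4 to 131.3 for early unloaded series a. Against early free-moving mice limma called 2 of the 11 markers higher and 6 lower. In tissue pieces, fewer ependymal cells, less RNA per cell and other causes cannot be told apart, and the cause was not tested.

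The first comparison asks what the late free-moving mice in quiet, 3 months old by the labels only, show against the early ones, 6 libraries against 12. Among the genes lower in the late series were the spoke genes Rsph9, Rsph10b and Rsph1, the tektins Tekt1, Tekt2 and Tekt4, the inner arm chains Dnah2 and Dnah10, and Cfap100. Among those higher were the heavy chains Dnah5, Dnah6 and Dnah12, the spoke gene Rsph4a, and Cfap97. By family, 3 of 14 heavy chains were higher and 6 lower, 3 and 3 of 8 spoke genes, 1 and 3 of 5 tektins, 2 and 0 of 3 Spag genes, and 7 and 11 of 32 Cfap genes. In limma 16 of 62 members were higher and 23 lower, beside 56.7% and 17.1% of all tested genes in those directions. The median difference was −0.03 for the members and 0.44 for all tested genes, a shift of the whole table that the direction of single genes should be read against. After quantile normalization, which puts the median of all genes at 0.02, 6 members were higher and 33 lower, beside 38.3% and 34.5% of all tested genes. With the mitochondrial share of each library as a covariate 0 were higher and 17 lower, beside 13% and 26% of all tested genes. That share did not overlap between the groups. It ran from 8.947 to 13.51% in the late quiet series, against 18.66 to 62.42% and 31.71 to 53.21% in early series a and b. The covariate fit thus extends beyond the shares seen in both groups, and its differences should be read with that limit. The members called lower in all 3 fits were 13, namely Cfap100, Cfap126, Cfap410, Cfap43, Cfap46, Cfap65, Dnah2, Dnah7b, Rsph1, Rsph10b, Rsph9, Tekt2 and Tekt4, and none was called higher in all 3.

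Of the heavy chains that rose, Dnah5 (ENSMUSG00000022262.8, chr15:28203752-28472052, plus strand) had 0.0768, 0.235 and 0.589 RPKM as the lowest, median and highest library in early series a. In early series b the values were 0.104, 0.17 and 0.196, and in the late quiet series 0.495, 0.664 and 0.683. Of the 6 late libraries 4 lay above every early one, and the groups overlapped through the top library of series a. The difference was 1.27 ± 0.21 (limma adjusted p = 1.1e-06, higher at 6 of 6 title numbers), 0.97 after quantile normalization and 0.38 with the mitochondrial covariate (adjusted p = 0.25). The inner arm chains Dnah6 (0.75 ± 0.2, adjusted p = 0.00087) and Dnah12 (0.59 ± 0.21, adjusted p = 0.01) were also higher in limma as deposited. Dnah6 came to −0.06 with the covariate.

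Of the heavy chains that fell, Dnah2 and Dnah10 form the inner arm with a pair of heads. Dnah2 ran from 0.437 to 0.547 RPKM (median 0.499) in the late quiet series and from 0.678 to 0.949 (0.824) and 0.747 to 1.17 (0.928) in early series a and b, with no overlap. It fell by 0.7 on the log2 scale (−0.7 ± 0.12, limma adjusted p = 1.3e-06) and Dnah10 by 0.67 (−0.67 ± 0.14, adjusted p = 4e-05). Dnah1 (−0.43), Dnah7a (−0.38) and Dnah7b (−0.32) fell less. Dnah14 had −0.48, but its mean of 0.11 RPKM is close to the pseudocount of 0.1. The pseudocount understates its fall, so its size cannot be ranked with the others. Dnah9 (0.11 ± 0.12, limma adjusted p = 0.44) and Dnah11 (0.04 ± 0.18, adjusted p = 0.84), outer arm chains like Dnah5, did not pass. The 3 chains that rose had a GC content of 41.9 to 47.3% in their longest coding transcripts, and the 6 that fell 44.0 to 54.0%.

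Of the spoke genes, Rsph9 had 14.9, 17.7 and 22.8 RPKM as the lowest, median and highest library in the late quiet series, against 24.2, 29.7 and 56.3 in early series a and 34.4, 39.9 and 49.5 in series b. Every late library lay below every early one. The difference was −1.02 ± 0.12 (limma adjusted p = 1.4e-09), −1.35 after quantile normalization and −0.96 with the covariate. Rsph10b (ENSMUSG00000075569.10, chr5:143933035-143985719, plus strand), another spoke gene, had 1.38, 1.51 and 1.87 RPKM in the late quiet series, 2.48, 4.97 and 7.01 in early series a and 3.63, 5.22 and 6.06 in series b. Its groups stood apart too, with a difference of −1.6 ± 0.15 (adjusted p = 2e-11). Rsph1 fell by 0.72. Rsph4a, a partner of Rsph1 and Rsph9 in the spoke head, was higher at 0.69 ± 0.18 (adjusted p = 0.00074), with late values of 2.76 to 4.06 RPKM and early ones of 0.774 to 3.38 and 1.83 to 2.36. It did not pass after quantile normalization (0.09) or with the covariate (0.08). The stalk genes Rsph3b (0.4) and Rsph3a (0.23) also passed as higher, though below the median difference of all tested genes. Of their 50-base windows 73.4 to 74.0% are shared, so reads may be divided between them.

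Tektins are filament proteins of the doublet wall. Tekt2 (chr4:126322121-126325688, minus strand) had 1.1, 1.57 and 2.19 RPKM in the late quiet series, 2.73, 3.66 and 4.54 in early series a and 3.06, 3.47 and 4.25 in series b. The groups did not overlap and the difference was −1.12 ± 0.13 (limma adjusted p = 2e-09). Tekt1 (−1.01 ± 0.15) and Tekt4 (−0.79) fell, Tekt5, best known from sperm, was higher at 0.37, and Tekt3 (−0.11 ± 0.29, adjusted p = 0.74) did not pass. The central apparatus genes Spag16 and Spag17 passed as higher, each at 0.45. That is about the median difference of all tested genes given above, and the value of Tekt5 lay below that median.

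Of the Cfap genes, Cfap100 (ENSMUSG00000048794.14, chr6:90403479-90428797, minus strand), of the complex that controls the inner arms, had 1.01, 1.26 and 1.63 RPKM in the late quiet series. In early series a its lowest, median and highest libraries were at 2.62, 4.24 and 7.79 RPKM, and in series b at 4.75, 4.92 and 6.37. No late library reached an early one, and the difference of −1.85 ± 0.18 (limma adjusted p = 2.4e-11) was the largest among the members by size. It was −0.89 with the mitochondrial covariate. Cfap73, the partner of Cfap100 in that complex, was higher at 1.22 ± 0.35 (adjusted p = 0.0017) on a median of 31 estimated reads, and 78 of its exonic bases overlap Ddx54 on the other strand. Cfap65 (−1.2 ± 0.16), Cfap43 (−1.01 ± 0.14), which tethers inner arm heads, and Cfap126 (−0.92 ± 0.17) fell.

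Cfap97 (ENSMUSG00000031631.15, chr8:46151771-46195590, plus strand), which is also transcribed in cells without motile cilia, went the other way. Its late quiet values of 5.95, 7.48 and 8.46 RPKM lay above early series a (2.4, 3.3 and 4.89) and series b (2.57, 2.76 and 2.97) with no overlap. The difference was 1.24 ± 0.16 (limma adjusted p = 1.5e-08), and 0.29 with the covariate (adjusted p = 0.12). The dynein arm assembly factors Cfap298 (1.06 ± 0.19, adjusted p = 3.5e-06) and Cfap300 (0.8 ± 0.16, adjusted p = 3e-05) passed as higher as deposited. With the covariate Cfap298 came to −0.03 and Cfap300 to 0.04. Cfap61, of a complex at the base of the spokes, was higher at 0.63 ± 0.16 as deposited (0.14 and not called with the covariate) and stood apart, at 0.437 to 0.531 RPKM in the late quiet series against 0.155 to 0.388 and 0.212 to 0.404 in the early ones. None of the 16 calls with the largest changes in this comparison was lost when a title number was left out. Over all members, 9 lay wholly below the early libraries and 2 wholly above, beside 5.99% and 27% of all tested genes.

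**Figure D2:**
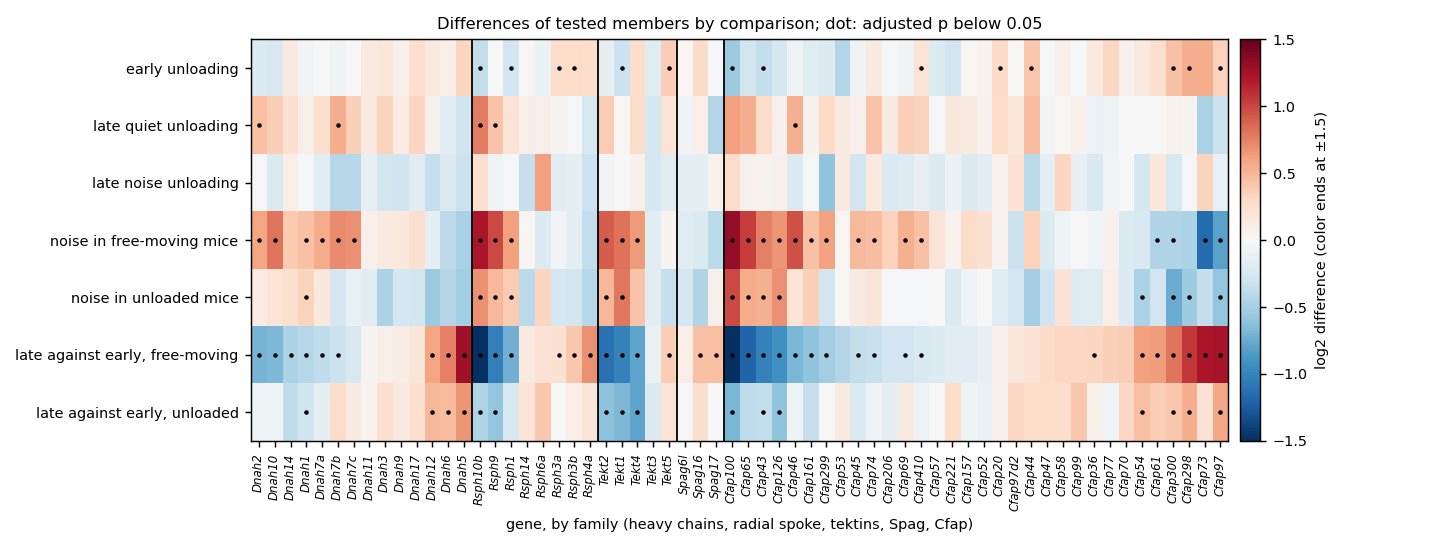
Log2 differences of the 62 tested members (columns, by family) in 7 comparisons (rows), red for higher and blue for lower, with a dot where the limma adjusted p was below 0.05. Cfap100, Rsph10b and Rsph9 are lower in late than early free-moving mice and higher in noise than quiet, and Cfap97 has the opposite signs.

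Noise with reduced pressure was compared with quiet in late free-moving mice, 6 libraries against 6, a comparison that shares the late quiet free-moving series with the one above. Genes higher in noise included the spoke genes Rsph9, Rsph10b and Rsph1, the tektins Tekt1, Tekt2 and Tekt4, the inner arm chains Dnah1, Dnah2, Dnah7b and Dnah10, and Cfap100, while Cfap97 was among the lower ones. By family, 6 of 14 heavy chains, 3 of 8 spoke genes, 3 of 5 tektins, 0 of 3 Spag genes and 11 of 32 Cfap genes were higher, and the 4 lower genes were all Cfap genes. In limma 23 of 62 members were higher and 4 lower, beside 19.6% and 32.4% of all tested genes, and the median difference was 0.15 for members and −0.14 for all. Quantile normalization gave 28 higher and 5 lower, beside 28.6% and 31.1% of all tested genes. The mitochondrial covariate gave 25 higher and 0 lower, beside 34.2% and 8.81%. Here too the mitochondrial share did not overlap, at 15.12 to 38.8% in noise and 8.947 to 13.51% in quiet, so the same limit holds. Called higher in all 3 fits were 19 members: Cfap100, Cfap410, Cfap43, Cfap45, Cfap46, Cfap65, Cfap69, Cfap74, Dnah1, Dnah10, Dnah2, Dnah7b, Dnah7c, Rsph1, Rsph10b, Rsph9, Tekt1, Tekt2 and Tekt4. For 11 members every noise library lay above every quiet one and for none below, beside 11.5% and 18% of all tested genes.

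Of the heavy chains, Dnah7b (ENSMUSG00000041144.10, chr1:46066315-46373546, plus strand), an inner arm chain, had 1.92, 2.24 and 2.89 RPKM as the lowest, median and highest noise library, against 1.08, 1.39 and 1.72 in quiet. The groups stood apart, at 0.71 ± 0.14 (limma adjusted p = 6.6e-05). Dnah7c lies beside it, and Dnah7a lies elsewhere on the same chromosome. They share 30.3 to 38.8% of their 50-base windows with one another and with Dnah7b. Their separate values, 0.68 for Dnah7c and 0.56 for Dnah7a, are therefore uncertain. Dnah10 (0.8 ± 0.16, adjusted p = 8.6e-05), Dnah2 (0.59 ± 0.14) and Dnah1 (0.44 ± 0.13) were higher. The outer arm chains Dnah5 (−0.49 ± 0.24, adjusted p = 0.087), Dnah9 (0.16 ± 0.14) and Dnah11 (0.08 ± 0.21) did not pass.

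Rsph9 stood at 44.1, 22.7, 41.9, 40.0, 37.9 and 32.3 RPKM at title numbers 1 to 21 in noise and at 20.1, 18.8, 15.7, 14.9, 16.6 and 22.8 in quiet. Noise library 5 was the lowest of its series and fell just under quiet library 21, and the other 5 noise libraries were above all quiet ones. The difference was 0.99 ± 0.14 (limma adjusted p = 3.7e-07), 1.12 after quantile normalization and 0.95 with the covariate. Rsph10b (1.96, 3.85 and 5.9 RPKM in noise) lay wholly above quiet, at 1.22 ± 0.18 (adjusted p = 6.6e-07), and Rsph1 was higher by 0.61. Rsph4a (−0.37 ± 0.21, adjusted p = 0.13) did not pass.

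Cfap100 stood at 4.11, 1.69, 3.8, 3.97, 4.05 and 3.03 RPKM in noise and at 1.63, 1.42, 1.11, 1.01, 1.41 and 1.11 in quiet, again with noise library 5 the lowest of its series but above quiet. The difference was 1.32 ± 0.21 (limma adjusted p = 2.4e-06), and 0.73 with the covariate. Cfap65 (1.04 ± 0.19), Cfap46 of the central apparatus (0.95 ± 0.15), Tekt2 (0.91 ± 0.16) and Tekt1 (0.82 ± 0.18, wholly above quiet) were also higher. Cfap97 stood at 3.12, 6.43, 4.19, 3.66, 3.29 and 5.15 RPKM in noise and at 6.67, 8.46, 5.95, 8.41, 7.38 and 7.59 in quiet. Here noise library 5 was the highest of its series, and the groups overlapped. Cfap97 fell by 0.8 on the log2 scale (−0.8 ± 0.19, adjusted p = 0.00058), and had −0.22 with the covariate (adjusted p = 0.19). Cfap73 (−1.15 ± 0.4, adjusted p = 0.014), Cfap300 (−0.45 ± 0.19, 0.02 with the covariate) and Cfap61 (−0.45 ± 0.18) were lower as deposited.

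**Figure D3:**
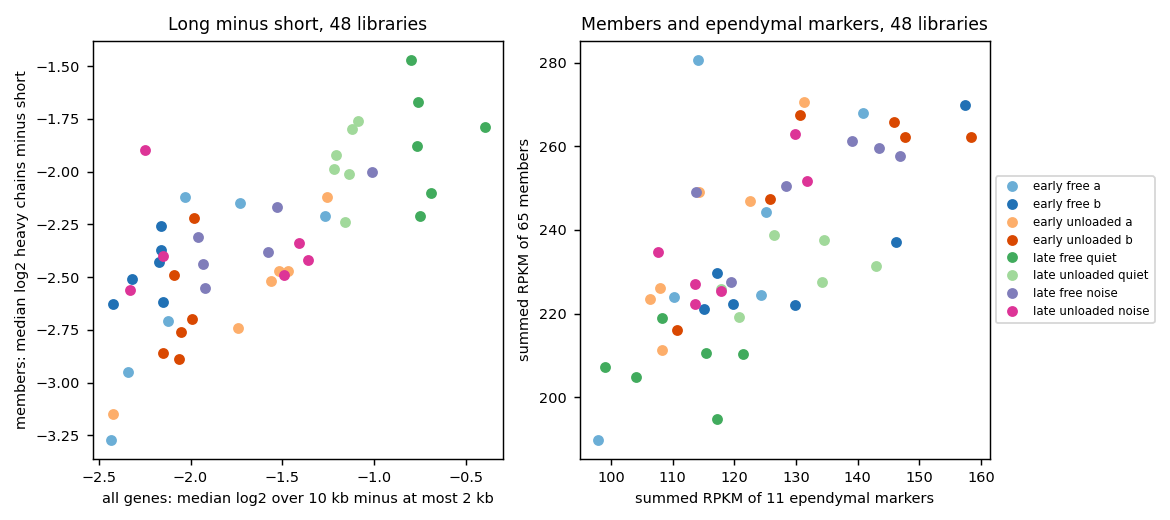
The 48 libraries, coloured by series. On the left the median log2 level of heavy chains minus short members is set against the same gap over all genes over 10 kb and of at most 2 kb, and on the right the summed RPKM of the 65 members against that of 11 ependymal markers. The late quiet free-moving libraries have member sums of 194.9 to 219 RPKM and a heavy chain minus short member gap of −2.21 to −1.47.

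In unloaded mice, noise against quiet, which uses the late quiet unloaded series as its control, gave 10 members higher and 4 lower in limma, beside 5.97% and 39.9% of all tested genes, with medians of −0.14 for members and −0.30 for all. The genes that rose included Cfap100 (0.99 ± 0.21, adjusted p = 0.0032), Tekt1 (0.79 ± 0.18, adjusted p = 0.0038), Cfap126 (0.69 ± 0.19), Rsph10b (0.68 ± 0.18) and Rsph9 (0.49 ± 0.14, adjusted p = 0.0072). Cfap65 (0.56), Cfap43 (0.53), Tekt2 (0.5) and Rsph1 (0.38) were higher as well. Rsph9 stood at 27.0, 33.8 and 44.3 RPKM in noise and 19.9, 23.7 and 29.7 in quiet, with some overlap. Cfap100, at 2.5, 4.26 and 6.96 RPKM in noise and 1.68, 1.99 and 2.27 in quiet, was the single member wholly above and none was wholly below, beside 2.6% and 10.3% of all tested genes. Cfap300 (−0.75 ± 0.19), Cfap97 (−0.59 ± 0.19), Cfap298 (−0.53 ± 0.22, 0.1 with the covariate) and Cfap54 (−0.47 ± 0.19) were lower. Dnah1 (0.33 ± 0.13, adjusted p = 0.038) was the single heavy chain called. Quantile normalization gave 16 higher and 1 lower, beside 17.5% and 20.4% of all tested genes, and no member was called with the mitochondrial covariate, in a fit that called 0 of all genes. Without the libraries of title number 13 there were 0 calls, without number 9 there were 3 and without number 17 there were 7. Whether the noise difference itself changed with unloading is tested below.

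Late against early unloaded mice, 6 libraries against 12 and with the same late quiet series, gave 7 members higher and 9 lower in limma, beside 34.3% and 7.5% of all tested genes. Medians were 0.06 for members and 0.22 for all. Dnah5 (0.66 ± 0.21, adjusted p = 0.013), Dnah12 (0.5 ± 0.21, adjusted p = 0.049) and Dnah6 (0.48 ± 0.2, adjusted p = 0.048) were the heavy chains that passed as higher and Dnah1 (−0.3 ± 0.11, adjusted p = 0.033) the one that was lower. Tekt4 (−0.79 ± 0.16, adjusted p = 0.00099), Cfap100 (−0.69 ± 0.18), Tekt1 (−0.67 ± 0.15), Tekt2 (−0.61 ± 0.13) and Rsph9 (−0.59 ± 0.12, adjusted p = 0.00098) fell. So did Cfap126 (−0.6), Rsph10b (−0.46) and Cfap43 (−0.37), while Cfap97 (0.58), Cfap298 (0.55), Cfap54 (0.45) and Cfap300 (0.41) were higher. Tekt2 was the single member wholly below the early libraries, at 1.55, 2.27 and 2.46 RPKM against 2.61 to 4.11 and 2.6 to 4.47, and none was wholly above, beside 0.796% and 3.43% of all tested genes. Quantile normalization gave 3 higher and 19 lower, beside 21.8% and 20% of all tested genes, and the covariate 0 and 5, beside 4.01% and 9.04%. The calls shared by all 3 fits were Rsph9, Tekt2 and Tekt4, all lower. Without the libraries of title number 1 or 21 the calls numbered 8, and those of Dnah5, Dnah6 and Dnah12 were among the ones lost.

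Unloading was compared with free movement under 3 backgrounds. In the early series, 12 libraries against 12, 9 of 62 members were higher and 5 lower in limma, beside 45.3% and 1.64% of all tested genes, with medians of 0.03 for members and 0.25 for all. The groups overlapped for all 62 members, beside 0% of all tested genes wholly above and 0% wholly below. The genes that rose most were Cfap298 (0.55 ± 0.15, adjusted p = 0.0068), Cfap300 (0.44 ± 0.13, adjusted p = 0.0095) and Cfap44 (0.41 ± 0.16, adjusted p = 0.033). Tekt5 (0.37), Cfap97 (0.34), Cfap20 (0.29), Rsph3a and Rsph3b (each 0.28) and Cfap410 (0.21) were also higher. Cfap100 (−0.55 ± 0.15, adjusted p = 0.0058), Rsph10b (−0.37 ± 0.13), Cfap43 (−0.36 ± 0.11), Tekt1 (−0.32 ± 0.13) and Rsph1 (−0.29 ± 0.1) fell. Cfap43 and Cfap44, tether partners, had opposite signs. No heavy chain was called in limma, and 2 of 14 had an unadjusted p below 0.05, as did 19 of the 62 members and 8636 of all 15448 tested genes. Without the libraries of title number 9 or 17 no member was called, and without those of number 13 there were 6.

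The unloaded series a and b, whose labels are the same, did not give the same picture. Cfap100 had 1.65, 1.95 and 5.48 RPKM as the lowest, median and highest library in early unloaded series a and 4.17, 4.4 and 5.49 in series b. Cfap43 had 1.11, 1.17 and 1.51 in series a and 1.83, 2.14 and 2.39 in series b, with no overlap. Both genes differed between the unloaded series in limma, Cfap43 at 0.78 ± 0.16 (b against a, adjusted p = 0.038) and Cfap100 at 0.93 ± 0.21 (adjusted p = 0.048), beside 0.0906% of all tested genes that were higher and 0.0583% that were lower. Neither was called with the mitochondrial covariate, where Cfap43 had 0.57 (adjusted p = 0.12) and Cfap100 0.49 (adjusted p = 0.18), or with no replicate block. Series b against either free-moving series alone called 0 members, and against series a of the free-moving mice the differences of Cfap100 (0.04), Tekt1 (0.03) and Rsph1 (0.02) had the other sign. Quantile normalization gave 0 members higher and 16 lower for early unloading, beside 9.55% and 7.59% of all tested genes. The covariate called no member there, in a fit that called 1 of all tested genes. Between the free-moving series, Cfap36 was the single member called (−0.69 ± 0.13, b against a, adjusted p = 0.0086), beside 0.0194% of all tested genes that were higher and 0.162% that were lower. Cfap52 (0.62 ± 0.18, adjusted p = 0.099) and Dnah1 (0.4 ± 0.13, adjusted p = 0.13) did not pass there, nor did Dnah10 (0.57 ± 0.16), Cfap65 (0.67 ± 0.19) and Cfap161 (0.62 ± 0.17), each with an adjusted p of 0.075 to 0.076, between the unloaded series.

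In late quiet mice, 5 members were higher with unloading and 0 lower in limma, beside 8.31% and 2.39% of all tested genes. Medians were 0.11 for members and 0.03 for all. This comparison again uses the late quiet free-moving series, now as the control. Rsph10b had 2.03, 2.82 and 3.29 RPKM as its lowest, median and highest unloaded library against 1.38, 1.51 and 1.87 in free-moving mice, a difference of 0.77 ± 0.18 (adjusted p = 0.0042). Dnah7b stood at 1.74, 2.01, 1.85, 2.3, 2.32 and 1.96 RPKM at title numbers 1 to 21 with unloading and at 1.41, 1.72, 1.12, 1.08, 1.37 and 1.55 without. Every unloaded library was above every free-moving one in both genes, and Dnah7b differed by 0.54 ± 0.14 (adjusted p = 0.011). Dnah2 (0.45 ± 0.14, adjusted p = 0.026, 0.587 to 0.874 against 0.437 to 0.547 RPKM) also stood apart, and Cfap46 (0.53 ± 0.15, adjusted p = 0.02) and Rsph9 (0.43 ± 0.14, adjusted p = 0.039) passed. In all, 7 members lay wholly above and 1 wholly below, beside 10.4% and 11.8% of all tested genes. Quantile normalization called 6 higher and 2 lower, beside 12.5% and 11.7% of all tested genes, and Dnah2 then had 0.35 (adjusted p = 0.08). The covariate called 13 higher and 0 lower, beside 19.5% and 5.13%. Leaving out library 17 of either late quiet series, the ones rich in choroid plexus markers, called 3 members instead of 5. Without the libraries of title number 13 or 17 Rsph10b was the single call left, and without number 9 there were 2 calls.

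In late noise mice no member passed in limma, beside 0.0194% of all tested genes that were higher and 0% lower, and 5 members had an unadjusted p below 0.05, as did 961 of all 15448 tested genes. No member stood wholly above or below, beside 0.0453% and 0.246% of all tested genes. Neither quantile normalization nor the covariate called a member, in fits that each called 0.0259% of all tested genes higher and 0.00647% lower. Those 5 were Cfap299 (−0.6 ± 0.22), Dnah7b (−0.43 ± 0.14, lower at 6 of 6 title numbers), Dnah7c (−0.43 ± 0.18), Dnah9 (−0.3 ± 0.14) and Rsph6a (0.62 ± 0.27), with adjusted p values of 0.73 to 0.79. Dnah7b had 1.34, 1.7 and 2.07 RPKM as its lowest, median and highest unloaded library and 1.92, 2.24 and 2.89 in free-moving mice, and the groups overlapped.

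The difference between the unloading effects in noise and in quiet was tested as an interaction. Of 62 members 0 were higher and 2 lower, beside 0.233% and 3.14% of all tested genes. They were Dnah7b, with −0.97 ± 0.2 (limma adjusted p = 0.005), and Cfap46, with −0.74 ± 0.22 (adjusted p = 0.048), each lower at 6 of 6 title numbers. In quiet the unloaded libraries of Dnah7b were above the free-moving ones and in noise mostly below. Cfap46 had medians of 1.54 RPKM in quiet free-moving, 2.45 in quiet unloaded, 3.23 in noise free-moving and 2.66 in noise unloaded mice. Dnah7c (−0.79 ± 0.26, adjusted p = 0.074), Cfap69 (−0.55 ± 0.19, adjusted p = 0.088) and Cfap299 (−0.89 ± 0.32, adjusted p = 0.1) did not pass. Dnah7b kept its call after quantile normalization (−0.78, adjusted p = 0.0088) and with the covariate (−0.97, adjusted p = 0.00074), while Cfap46 had −0.57 (adjusted p = 0.13) after quantile normalization. Without title number 13 or 17 Dnah7b had −0.93 (adjusted p = 0.073) and −0.87 (adjusted p = 0.074).

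**Figure D4:**
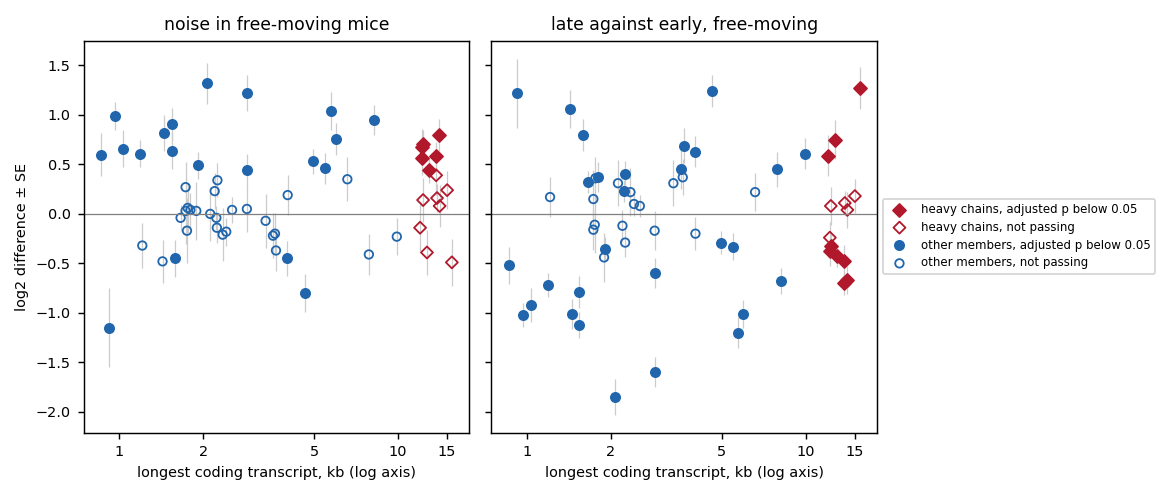
Log2 difference ± SE of the 60 tested members with a matched transcript against its length in kb (log axis), for noise against quiet and late against early in free-moving mice. Filled marks passed in limma, and the heavy chains (diamonds) hold values on both sides of 0, from −0.7 to 1.27 in late against early mice.

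Long heavy chains were set beside short members because the values of long and short genes shifted against each other over the whole table. In late against early free-moving mice the median difference was 1.22 for the 374 genes over 10 kb and −0.17 for the 3976 genes of at most 2 kb, 1.39 apart. The heavy chains had a median of −0.1 and the 19 short members −0.16, which is 0.06 apart (SD 0.25 over the 6 title numbers, above 0 at 5). In noise against quiet in free-moving mice all long genes had −0.62 and all short genes 0.3, −0.92 apart, while heavy chains had 0.31 and short members 0.06, 0.25 apart (SD 0.26, above 0 at 4). In noise against quiet in unloaded mice the gap was −0.64 for all genes and −0.13 (SD 0.2) for the members. In these 3 comparisons the heavy chains did not move away from the short members by as much as long genes did from short genes. That is read from medians of single-gene differences, and medians of levels, given below, differ in size and sign. With 11 of the 14 heavy chains under 1 RPKM, the pseudocount also understates their differences. After quantile normalization the medians in late against early free-moving mice were 0.67 for all long genes, −0.51 for all short genes, −0.38 for heavy chains and −0.6 for short members.

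**Figure D5:**
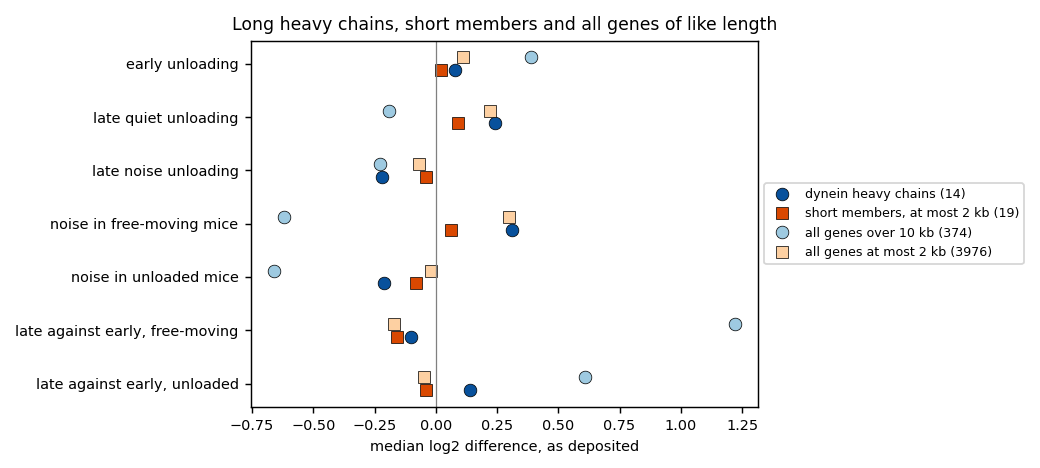
Median log2 differences of heavy chains, short members, all genes over 10 kb and all genes of at most 2 kb in each comparison. The median of all long genes is 1.22 in late against early free-moving mice and −0.62 in noise against quiet in free-moving mice, and the heavy chain medians are −0.1 and 0.31.

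With late against early unloaded mice the heavy chains were 0.18 above the short members (SD 0.13, above 0 at 6 title numbers) and all long genes 0.66 above all short ones. Unloading moved the gap by 0.06 (SD 0.17) in early, 0.15 (SD 0.2) in late quiet and −0.18 (SD 0.26) in late noise mice, against 0.28, −0.42 and −0.15 for all long and short genes. The gaps of the members were about as large as their spread over title numbers or smaller in these 3 comparisons. As levels, the median log2 value of the heavy chains minus that of the short members averaged −1.85 in the late quiet free-moving series, −1.95 in the late quiet unloaded series and −2.65 to −2.31 in the others. The median over short members was lower in those late quiet series, at 0.957 and 1.17, than in the others, at 1.40 to 1.66. Over the 48 libraries the gap of levels had Pearson's r = 0.742 (Spearman's rho = 0.73) with the same gap over all genes. The r was 0.512 once series means were taken off. The gap of levels had r = −0.527 with the mitochondrial share. That share averaged 11.5% in free-moving late quiet mice, 14% in the late quiet unloaded series and 20.5 to 44.5% in the others. These are descriptions over libraries that share series, depth and pools, and the part of transcript length and mitochondrial share in the member differences was not tested.

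Other motile cilia genes were read from a list of 44 tested genes outside the rule, covering transcription factors, arm assembly and docking, the nexin-dynein complex and central apparatus. In noise against quiet in free-moving mice 13 of 44 were higher and 1 lower in limma, beside 19.6% and 32.4% of all tested genes, with a median of 0.21. Of the 12 assembly and docking genes 5 were higher and 0 lower, and of the 6 transcription factor genes 0 were higher and 1 lower. In late against early free-moving mice 7 of 44 were higher and 16 lower, beside 56.7% and 17.1% of all tested genes, and among the assembly and docking genes 2 and 7. The counts were 5 and 6 in noise against quiet in unloaded mice (5.97% and 39.9% of all tested genes) and 5 and 6 in late against early unloaded mice (34.3% and 7.5%). They were 6 and 4 in early unloading (45.3% and 1.64%), 4 and 0 in late quiet unloading (8.31% and 2.39%) and 0 and 0 in late noise unloading (0.0194% and 0%). Foxj1, the master factor of motile cilia, had a median of 12.2 RPKM in late quiet free-moving mice and 10.6 in late noise free-moving mice, against 8.08 (a) and 8.11 (b) in the early free-moving series. The intermediate chain Dnaic1 averaged 1.97 ± 0.309 RPKM (SD, n = 6) in late quiet free-moving mice and 2.35 to 3.29 in the other series, and Dnaic2, its partner, 2.05 ± 0.206 and 1.37 to 2.02.

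Marker lists of ependymal and other cells were read in the same fits. Of the 11 ependymal markers 5 (Foxj1, Dynlrb2, Enkur, Odf3b and Ak7) are also among the 44 motile cilia genes above. In noise against quiet in free-moving mice 5 of 11 ependymal markers were higher and 0 lower, and 4 of 8 tanycyte markers were higher and 1 lower. There 4 of 6 neuron, 4 of 9 choroid plexus, 4 of 6 astrocyte and 2 of 4 microglia markers were lower, and 0, 0, 1 and 1 higher, beside 19.6% of all tested genes higher and 32.4% lower. In late against early free-moving mice 2 ependymal markers were higher and 6 lower, and 2 tanycyte markers were higher and 4 lower. There 5 of 6 neuron and 5 of 9 choroid plexus markers were higher and none lower, 5 astrocyte markers were higher and 1 lower, and 3 microglia markers were higher and 1 lower, beside 56.7% and 17.1% of all tested genes. In early unloading 3 ependymal markers were higher and 5 lower, and 1 oligodendrocyte marker was higher and 2 lower. There 4 neuron, 4 astrocyte, 3 hypothalamic, 2 choroid plexus, 2 microglia and 1 tanycyte markers were higher and none lower, beside 45.3% and 1.64%. The hypothalamic markers are counted here for the unloading comparisons only. Of the 5 oligodendrocyte markers limma called 2 higher and 0 lower for noise in free-moving mice. For noise in unloaded mice it called 2 of them higher and 2 lower. Late against early gave 1 higher and 2 lower, with and without unloading. Summed oligodendrocyte markers averaged 1552 RPKM in late quiet free-moving mice and 2132 with noise. The early free-moving means were 2917 (a) and 2816 (b). Noise in unloaded mice gave 3 ependymal markers higher and 2 lower, 2 tanycyte markers higher and 0 lower, 1 astrocyte marker higher and 4 lower, 1 microglia marker higher and 2 lower, and 5 neuron and 2 choroid plexus markers lower, beside 5.97% and 39.9%. Late against early unloaded mice gave 2 ependymal markers higher and 4 lower, 3 tanycyte markers lower, 3 astrocyte markers higher and 1 lower, and 3 neuron, 4 choroid plexus and 1 microglia markers higher, beside 34.3% and 7.5%. With unloading in late quiet mice 1 ependymal and 1 hypothalamic marker were higher and 1 astrocyte and 1 spermatid marker lower, and in late noise mice no marker was called. Their part in the member differences was not tested.

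Across the 48 libraries, on log2 values relative to the median of each library, 2 tested members had a mean r of 0.291 with one another, against 0.015 for any 2 tested genes. The r with the mean of the ependymal markers was above 0.5 for 36 of 62 members (58.1%), against 35.6% of all tested genes, and its median was 0.65 against 0.22. Cfap65 and Rsph1 (each 0.95) and Dnah10 (0.94) were the highest. Cfap97 (−0.76), Cfap298 (−0.73), Dnah5 (−0.48) and Cfap300 (−0.33) were the lowest. The summed member level had r = 0.68 with the summed ependymal markers, and 0.678 once series means were taken off. These libraries share series and table-wide shifts, and the correlations are given as a description.

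Of the members, Rsph10b alone passed the test for a 24-hour cosine over the title numbers (amplitude 0.28 on the log2 scale, peak at 16.3, limma adjusted p = 0.029), beside 1.55% of all tested genes. It was not called after quantile normalization or with the title numbers as unordered levels. A same-strand overlap of 58 exonic bases with Pms2 and 325 with Gm42421 bears on its reads, and the strand setting of the counting is not given in the sources used here.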

How the data were processed

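Total RNA from pooled hypothalami (Trizol, per the labels' protocols) was sequenced by the authors on an Illumina platform, and the deposited values are RPKM per gene for 48 libraries. Per the submitters' processing notes CASAVA 1.8 and HISAT were used. For the HISAT version, genome build, annotation, strand setting and multi-mapping rule the sources used here give no statement. RPKM divides by a gene length and a library total that can shift all genes together. No column was left unused (0).

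RPKM values were tested as log2(RPKM + 0.1) with limma 3.58.1 in R 4.3.3, with the trend option, in 1 fit over the 8 series with the title number as a block (35 residual degrees of freedom). Genes needed a mean of at least 0.1 RPKM, which kept 15448 genes. The early effect averages both series of each kind, and fold changes of low genes are understated by the pseudocount. P-values were adjusted by the Benjamini-Hochberg method with every tested gene included, and tests were two-sided. A 24-hour cosine was tested over title numbers. Same-numbered libraries of different series deviated together little, with a median r of 0.052 over 168 pairs, against −0.011 over 840 pairs of other numbers. Whether the numbers pair the pools was not tested. Tables and drawings used Python 3.11.15, pandas 2.3.3, numpy 2.4.6 and matplotlib 3.10.9. Gene IDs, positions and lengths came from GENCODE M21, which matched 63 of 65 members, and promoters from RefSeq (GRCm38.p6). Depth was estimated from the spacing of low values, 63.2 to 69.2% of which fell within 0.02 of a whole read, too few for a count test.

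Genes named were the highest and lowest called members of each comparison, up to 8 each way, the 5 smallest p where under 5 were called, and a list given by level (with Dnah5, Rsph9, Tekt1 and Cfap43 among them). Members and lists were chosen with earlier results of these data known. On simulated data for late quiet unloading (15448 genes) 25% of changes of 0.5 and 80% of changes of 1 on the log2 scale were recovered, with 4.5% false among calls. For the title number test 8.1% of the calls were false. The simulated noise was independent between genes and libraries and held no shift of a whole library or series. These shares therefore do not measure the false calls in the real table, which does shift as a whole. Alternatives changed the pseudocount and minimum to 0.5, the filter, the normalization, the block, the series in the fit, the limit of short genes to 3 kb and the title numbers kept, and added the mitochondrial share.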

Additional observations from a re-analysis of the deposited data

Results flagged for a closer look

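In groups of 6 libraries, 23 of 280 groups examined (8.21%) had a highest or lowest library far from the other 5 by Dixon's 95% criterion, where chance gives about 1 in 20 (5%). Library 9 of early unloaded series a was high in Dnah9 (0.969 RPKM, the others 0.63 to 0.718), Cfap43 (1.51, the others 1.11 to 1.2) and Cfap45 (2.94, the others 1.96 to 2.26), and it is the library with the high pituitary markers. Library 13 of the late unloaded noise series was high in Dnah7a (0.733 RPKM, the others 0.38 to 0.504), Tekt2 (5.09, the others 2.21 to 3.25) and Cfap69 (6.1, the others 4.07 to 4.46), and its heavy chain minus short member gap was −1.9, against −2.56 to −2.34. Library 21 of early unloaded series b was low in Rsph4a (1.45 RPKM, the others 2.52 to 2.86), Rsph3a (6.89, the others 9.51 to 10.7), Cfap45 (2.19, the others 3.13 to 3.62) and Cfap20 (11.5, the others 15.9 to 18.2).

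Library 5 of the late free-moving noise series was low in Dnah1 (3.01 RPKM, the others 4.32 to 4.97), Cfap45 (2.48, the others 3.07 to 3.22) and in the summed level of all members (228.0 RPKM, the others 249 to 261). Library 9 of that series was high in Dnah9 (1.4, the others 0.648 to 0.883). Library 13 of early free-moving series b was high in Rsph1 (23.0 RPKM, the others 11.6 to 15.1) and in the member sum (270.0, the others 221 to 237). In the late quiet free-moving series Dnah12 was high in library 17 (0.533, the others 0.309 to 0.391), Spag16 in library 1 (0.71, the others 0.321 to 0.462) and Tekt1 low in library 9 (3.8, the others 4.58 to 5.02). The remaining values were Dnah7a at 0.33 in late quiet unloaded library 21 (the others 0.437 to 0.472), Rsph3a at 7.31 in early unloaded series a library 1 (the others 10.4 to 12) and Cfap44 at 1.41 in early free-moving series b library 17 (the others 1.1 to 1.21).

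The unloading effect differed between noise and quiet in limma for Dnah7b (−0.97) and Cfap46 (−0.74). These are 2 of 62 members, beside 3.14% of all tested genes called lower in that test. Cfap46 was not called after quantile normalization (−0.57, adjusted p = 0.13), and Dnah7b was not called without title number 13 (−0.93, adjusted p = 0.073) or 17 (−0.87, adjusted p = 0.074).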

How the results depend on the processing

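Numbers of members called, over either direction, moved as follows. For early unloading (14 called) the mitochondrial covariate gave 0, the compared series alone 9, unloaded series a set against free-moving a alone 9 and against free-moving b alone 24, and unloaded series b set against either of them 0. For late quiet unloading (5) quantile normalization gave 8, the covariate 13, the compared series alone 17, and leaving out library 17 of either late quiet series 3. The covariate gave 17 of 39 in late against early free-moving, 5 of 16 in late against early unloaded and 0 of 14 in noise in unloaded mice. The interaction (2) had 9 with the covariate, 6 with the compared series alone and 1 with no filter, with no replicate block or without library 17 of either late quiet series. Free-moving series b against a (1) had 2 after quantile normalization, 2 with the covariate, 0 with the compared series alone and 0 without early free-moving series a library 1. Unloaded series b against a (2) had 12 after quantile normalization, 0 with the covariate, 1 with no filter and 1 without early unloaded series a library 9. The title number call (1) became 0 after quantile normalization and 0 with the numbers as unordered levels. The 4 left-out libraries were chosen after seeing the data.

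With no replicate block, the calls were 12 for early unloading, 4 for late quiet unloading, 26 and 13 for noise in free-moving and unloaded mice, 38 and 13 for late against early in free-moving and unloaded mice, and 0 for unloaded series b against a.

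Leaving out each title number in turn, calls ranged from 0 to 20 for early unloading (0 without number 9 or 17), 1 to 8 for late quiet unloading, 0 to 0 for late noise unloading, 23 to 27 for noise in free-moving and 0 to 20 in unloaded mice (0 without number 13), 30 to 35 for late against early in free-moving and 8 to 15 in unloaded mice, 0 to 2 for the interaction, 0 to 1 and 0 to 14 for series b against a in free-moving and unloaded mice and 0 to 1 for the title number. The gap of heavy chains over short members ranged from −0.02 to 0.11, 0.09 to 0.18 and −0.24 to −0.09 for unloading in early, late quiet and late noise mice, 0.13 to 0.24 and −0.21 to −0.11 for noise in free-moving and unloaded mice, −0.02 to 0.22 and 0.10 to 0.23 for late against early in the same order, −0.31 to −0.14 for the interaction, and −0.09 to −0.03 and −0.22 to −0.05 for series b against a. It moved to 0.28 for early unloading with series a against free-moving series b (0.06 over both) and to 0.1 for unloaded series b against a at a minimum of 0.5 RPKM (−0.14).

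Signs turned with the covariate for Tekt5 (0), Cfap97 (−0.07) and Rsph3b (−0.02) in early unloading, Cfap300 (0.02) in noise in free-moving mice, Cfap298 (0.1) in noise in unloaded mice, and Cfap298 (−0.03) and Dnah6 (−0.06) in late against early free-moving mice. They also turned in early unloading for Cfap100 (0.04), Tekt1 (0.03) and Rsph1 (0.02) when unloaded series b was set against free-moving a alone, and for Cfap43 (0.11) against free-moving b alone. The cause was not tested. Depth limits genes such as Cfap73, at a median of 31 estimated reads.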
